A study of Homo sapiens and Mus musculus with 36 samples.

Results

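Fibrinogen and the classical acute phase genes were followed as a set of 10 named genes, FGA, FGB, FGG, LBP, SAA1, SAA2, ORM1, ORM2, HP and CRP, among the 26457 gene symbols counted in the human guide libraries. The human genes were matched by symbol, and their mouse counterparts by the title-case symbol among 22673 mouse symbols. FGA, FGB, FGG and LBP were chosen because their levels changed with interferon (IFN) in a genotype-dependent way in the HuH-7 guide libraries. For these 4 genes the guide and IFN values in HuH-7 are therefore a description, without a test. The other 6 genes were not chosen for that pattern, though the whole set was named with earlier results of these data known.

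The study edited DOT1L, the histone H3 lysine methyltransferase, with CRISPR guides in 4 tumour cell lines and counted transcripts in 36 libraries. In HuH-7, a human hepatocellular carcinoma line, the groups used here were DOT1L knockout (KO) cells with IFN (2 libraries each of sg1 and sg2), cells carrying the control guide sgNeg2 with IFN (2 libraries), KO cells without IFN (2 libraries of each guide) and sgNeg2 cells without IFN (2 libraries). HuH-7 cells for which no guide is named had EPZ-5676, a small-molecule DOT1L inhibitor, for 7 days, or DMSO, with 3 libraries each. Hepa1-6, Hep53.4 and LLC, which are mouse lines of hepatoma and, for LLC, Lewis lung carcinoma origin, each had 4 KO libraries (2 per guide) and 2 sgNeg2 libraries. The type, dose and duration of IFN, the dose of EPZ-5676, and whether KO cells were clones or pools are stated in none of the labels used here. The labels are also silent on whether replicates were separate cultures, so a p-value here reflects the scatter between libraries, which may be technical.

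DOT1L held 32.1 to 66.8 CPM (TMM-scaled counts relative to library size) in the 8 HuH-7 KO libraries and 73.1 to 109 CPM in the 4 sgNeg2 libraries, and it was lower in KO than in sgNeg2 within each IFN setting. Mouse Dot1l held 10.8 to 33.7 CPM in KO libraries and 21.6 to 68.8 CPM in sgNeg2 libraries, again without overlap within a line. All 10 hepatocyte markers examined reached 5 CPM in every HuH-7 group. In Hepa1-6 sgNeg2 cells 7 of the 8 listed did so, in Hep53.4 sgNeg2 cells 4, and in LLC sgNeg2 cells 1. None of 8 lung epithelial markers reached 5 CPM in LLC. The depth was 47594968 to 61227426 counts per guide library of HuH-7 with IFN, 19580588 to 22649969 in those without IFN, 48912627 to 58628528 with EPZ-5676 or DMSO, and 42637155 to 59686358 in the mouse lines. Small nuclear RNA genes took 0.0089 to 0.0107% of counts in the guide libraries with IFN and 1.88 to 3.42% in those without, so IFN and the kind of library cannot be told apart in comparisons of one with the other.

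The acute phase response is the liver's change in secreted plasma proteins during infection or injury, driven mainly by IL-6 through STAT3 and by IL-1 through NF-kB and C/EBP factors. Fibrinogen is a hexamer built from pairs of Aα, Bβ and γ chains, which FGA, FGB and FGG encode, and thrombin turns it into the fibrin of a clot. The 3 chain genes lie together on human chromosome 4, and C/EBP factors act on promoters of the cluster.

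In GRCh38 the FGB gene spans chr4:154562956-154571086 on the plus strand, FGA spans chr4:154583126-154590766 on the minus strand and FGG spans chr4:154604134-154612967 on the minus strand, which together cover 50 kb. LBP spans chr20:38346356-38377023 (plus), HP chr16:72054592-72061055 (plus), ORM1 chr9:114323056-114326475 (plus), ORM2 chr9:114329869-114333252 (plus), SAA1 chr11:18266174-18269977 (plus), SAA2 chr11:18239223-18248643 (minus) and CRP chr1:159712289-159714589 (minus). The promoters of the 3 chain genes are shown because these genes were chosen together for their pattern in the HuH-7 guide libraries. Each sequence runs from 250 bases before to 50 bases after a transcript start, on the gene's own strand, as RefSeq gives it for GRCh38.p14. Capitals mark matches to CTGGGA (the core of an IL-6 response element), TTGCNNAA (a C/EBP motif) and TTCNNNGAA (a STAT motif), each searched on both strands.
FGA, chr4:154590693-154590992, minus strand: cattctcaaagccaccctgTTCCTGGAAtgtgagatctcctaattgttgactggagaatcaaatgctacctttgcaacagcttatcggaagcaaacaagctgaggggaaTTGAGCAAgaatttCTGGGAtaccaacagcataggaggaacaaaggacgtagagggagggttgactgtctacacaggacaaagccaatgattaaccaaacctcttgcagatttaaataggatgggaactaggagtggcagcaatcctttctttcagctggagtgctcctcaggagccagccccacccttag
FGB, chr4:154562730-154563029, plus strand: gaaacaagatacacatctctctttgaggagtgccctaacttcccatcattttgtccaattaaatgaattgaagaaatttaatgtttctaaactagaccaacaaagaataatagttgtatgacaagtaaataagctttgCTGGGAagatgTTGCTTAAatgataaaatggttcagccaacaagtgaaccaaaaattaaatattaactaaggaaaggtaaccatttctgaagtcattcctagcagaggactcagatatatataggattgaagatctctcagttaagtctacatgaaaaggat
FGG, chr4:154612607-154612906, minus strand: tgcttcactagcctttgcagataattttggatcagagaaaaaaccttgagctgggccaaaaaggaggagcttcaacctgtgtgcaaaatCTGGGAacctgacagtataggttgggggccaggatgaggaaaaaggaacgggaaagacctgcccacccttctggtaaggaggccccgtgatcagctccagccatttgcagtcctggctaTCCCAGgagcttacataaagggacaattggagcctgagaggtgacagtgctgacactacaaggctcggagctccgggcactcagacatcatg

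CTGGGA was found in all 3 windows, at -127 in FGA, at -112 in FGB and at -161 in FGG, with a further match on the other strand at -42 in FGG. It is common, since 33.3% of 35116 promoter windows hold it. The C/EBP motif was found at -141 in FGA, on the opposite strand, and at -101 in FGB, against 10.5% of all windows. The STAT motif, held by 7.66% of windows, was found at -231 in FGA, where it overlaps no other match. FGB has a second RefSeq entry with a later start and the same matches. CRP and ORM1, the other members with an entry in the table (5 of 10 in all), held none of these 3 motifs. These matches describe letters and were not tested as binding sites.

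Levels per kilobase of exon give an order of the genes that depends on the lengths used. The length was the union of all annotated exons, which can exceed that of a transcript. It was 0.796 kb for SAA1 and 2.227 kb for SAA2, which held 61.7 and 51.8 CPM on average in sgNeg2 cells without IFN. In HuH-7 sgNeg2 cells without IFN the order was SAA1 (77.6 ± 7.14 CPM per kb, SD, n = 2), FGA (63.7 ± 0.754), FGG (45.6 ± 1.70), FGB (24.3 ± 1.18), SAA2 (23.3 ± 1.27), LBP (22.2 ± 0.826), ORM1 (14.3 ± 0.248), ORM2 (8.70 ± 0.289), HP (2.02 ± 0.286) and CRP (0.159 ± 0.164). The gap between FGB and SAA2 and that between SAA2 and LBP were within their spread. With DMSO the fibrinogen chains led instead, at 107 ± 1.72 CPM per kb for FGA, 88.0 ± 0.405 for FGG and 53.3 ± 0.685 for FGB (SD, n = 3). SAA1 stood at 15.2 ± 1.77 CPM per kb there. These sgNeg2 and DMSO levels come from libraries of different kinds and were not tested against each other.

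The fibrinogen chain genes were lower in KO than in sgNeg2 cells without IFN and higher with IFN. FGA, the Aα chain gene, held 141 and 144 CPM in sg1 and 132 and 128 CPM in sg2 libraries with IFN, against 90.6 and 87.2 CPM in sgNeg2 libraries with IFN. Without IFN it held 105 and 104 CPM in sg1 and 137 and 138 CPM in sg2 libraries, against 250 and 254 CPM in sgNeg2 libraries. Every KO library was above both sgNeg2 libraries with IFN and below both without it. The log2 change in KO was 0.62 with IFN and -1.06 without IFN, a difference of 1.68.

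FGB, the Bβ chain gene, held 64.0 and 57.3 CPM in sg1 and 56.1 and 54.9 CPM in sg2 libraries with IFN, against 28.5 and 27.9 CPM in sgNeg2. Without IFN it held 36.9 and 32.5 CPM in sg1 and 39.5 and 49.4 CPM in sg2 libraries, against 68.1 and 63.6 CPM in sgNeg2. The groups did not overlap in either setting, and the log2 change in KO was 1.04 with IFN and -0.73 without, a difference of 1.78. FGG, the γ chain gene, held 139 and 141 CPM in sg1 and 122 and 119 CPM in sg2 libraries with IFN, against 101 and 99.9 CPM in sgNeg2. Without IFN it held 83.4 and 87.7 CPM in sg1 and 93.3 and 104 CPM in sg2 libraries, against 159.7 and 168 CPM in sgNeg2. FGG thus followed the same order with a smaller change with IFN, at log2 0.37 with and -0.83 without IFN, a difference of 1.20.

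LBP encodes the lipopolysaccharide-binding protein, a secreted protein that hands bacterial lipopolysaccharide to CD14. It held 2.92 and 3.42 CPM in sg1 and 3.24 and 3.32 CPM in sg2 libraries with IFN, against 3.15 and 2.83 CPM in sgNeg2. Without IFN it held 20.8 and 19.3 CPM in sg1 and 19.4 and 20.2 CPM in sg2 libraries, against 44.7 and 42.5 CPM in sgNeg2. The genotypes overlapped with IFN, where all 6 libraries were low, and stood apart without it. The log2 change in KO was 0.11 with IFN and -1.13 without IFN, so that the difference of 1.24 came with no separation of genotypes under IFN. Across all genes, libraries of the groups did not overlap for 13.1% (higher in KO) and 19.8% (lower in KO) with IFN, and for 23.1% and 22.8% without IFN.

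**Figure D1:**
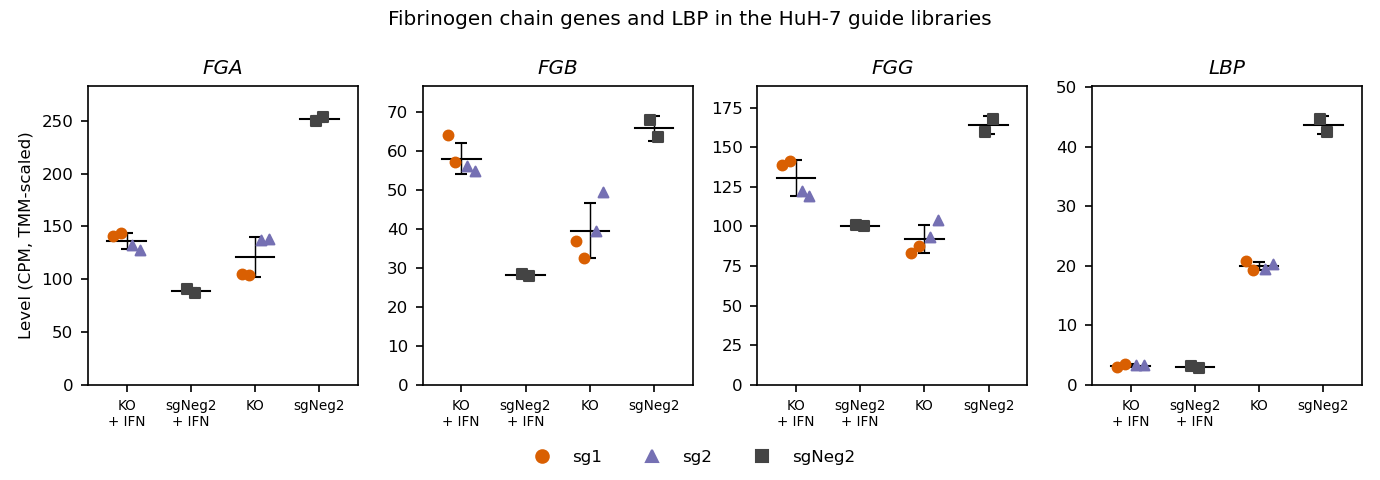
Levels of FGA, FGB, FGG and LBP (CPM, linear axis from 0) in the 12 HuH-7 guide libraries, by genotype and IFN. Symbols are libraries, lines are means and bars are SD. For FGA the 4 KO libraries lie above sgNeg2 with IFN (136 against 88.9 CPM on average) and below it without IFN (121 against 252 CPM), while LBP is low in both genotypes with IFN.

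Read by genotype, IFN libraries of sgNeg2 cells had less fibrinogen transcript than sgNeg2 libraries without IFN, at log2 -1.50 for FGA, -1.22 for FGB and -0.71 for FGG. In KO cells the same contrast gave 0.17, 0.55 and 0.50. The guides differed in it, since sg1 alone gave 0.45, 0.80 and 0.70, and sg2 alone gave -0.08, 0.32 and 0.28. LBP was lower with IFN in both genotypes, at -2.62 in KO and -3.87 in sgNeg2. Against the DMSO libraries, whose small nuclear RNA share of 0.0155 to 0.0191% and depth are near those of the IFN libraries, sgNeg2 cells with IFN also held less of each, at log2 -2.36 for FGA, -2.47 for FGB, -1.77 for FGG and -2.27 for LBP. The labels name no guide for the DMSO cells, so guide and IFN cannot be told apart in that contrast.

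The chain genes did not keep 1 ratio to each other. The size of each ratio depends on the exon lengths used, though its relative change between groups does not. Per kilobase of exon, the FGA to FGB ratio was 1.61 ± 0.0846 (SD, n = 4) in KO and 2.16 ± 0.0260 (n = 2) in sgNeg2 cells with IFN, and 2.10 ± 0.214 in KO and 2.62 ± 0.158 in sgNeg2 cells without IFN. The FGG to FGB ratio was 1.69 ± 0.111 in KO and 2.68 ± 0.0168 in sgNeg2 cells with IFN, and 1.77 ± 0.188 and 1.88 ± 0.161 in KO and sgNeg2 cells without IFN. The FGG to FGB ratio was highest in sgNeg2 cells with IFN, where FGB was lowest. With EPZ-5676 the FGA to FGB ratio was 1.80 ± 0.0263 against 2.00 ± 0.0361 with DMSO, and the FGG to FGB ratio was 1.67 ± 0.0190 against 1.65 ± 0.0281 (SD, n = 3 each).

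The levels of the chain genes also differed between the guides, in opposite directions with and without IFN, which is described without a test. With IFN, sg2 cells held less than sg1 cells, at log2 -0.13 for FGA, -0.13 for FGB and -0.22 for FGG. Without IFN they held more, at 0.40 for FGA, 0.36 for FGB and 0.21 for FGG. Each guide had 2 libraries per setting. LBP was at 0.05 with IFN and -0.02 without IFN. Of the 5 genes tested, SAA1 was higher in sg2 than in sg1 cells with IFN (0.39 ± 0.08, edgeR adjusted p = 0.00260), where 34.4% of all genes were called. Without IFN edgeR and DESeq2 each called 0 of the 5, where 0.0304% of all genes were called by edgeR, and ORM1 alone was under an unadjusted p of 0.05 (-0.58 ± 0.18, adjusted p = 0.290). Without sg2 replicate 1 of the libraries without IFN, the ORM1 change was -1.03. That fit leaves sg2 replicate 2 alone, which held 10.7 CPM against 18.4 CPM in replicate 1. Over all genes too, the 2 sg2 libraries without IFN were less alike than those of sg1 or sgNeg2. The chi-square per degree of freedom between their counts was 24.7, against 2.81 for sg1 and 3.92 for sgNeg2. Small nuclear RNA genes took 1.88% of counts in replicate 2 and 2.84% in replicate 1. The few calls without IFN therefore do not show that the guides agree.

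The serum amyloid A genes SAA1 and SAA2 encode small apolipoproteins that are among the most strongly induced acute phase proteins, and ORM1 and ORM2 encode the orosomucoids, plasma proteins that bind drugs and steroids. With IFN, these 4 of the 5 genes tested rose in KO cells and none fell, where 12.4% of all 16448 genes were called. SAA1 held 53.5 and 53.0 CPM in sg1 and 71.6 and 68.0 CPM in sg2 libraries, against 27.5 and 24.8 CPM in sgNeg2 (log2 1.24 ± 0.13, edgeR adjusted p = 4.32e-05). SAA2 held 39.9, 36.1, 35.8 and 35.2 CPM in KO libraries against 18.7 and 20.6 CPM in sgNeg2 (0.90 ± 0.09, adjusted p = 2.13e-05). Every KO library held more of each SAA transcript than both sgNeg2 libraries. ORM1 held 45.2, 46.5, 49.5 and 54.6 CPM in KO libraries against 19.8 and 20.4 CPM in sgNeg2 (1.28 ± 0.21, adjusted p = 0.00111). ORM2 held 12.2, 14.9, 16.0 and 14.9 CPM in KO libraries against 5.86 and 6.87 CPM in sgNeg2 (1.19 ± 0.14, adjusted p = 9.02e-05). The ORM groups did not overlap either, and all 4 calls held without any one of the 6 libraries with IFN.

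Without IFN the differences were smaller. SAA2 held 66.6, 67.7, 61.8 and 70.4 CPM in KO libraries against 53.8 and 49.8 CPM in sgNeg2 and rose by log2 0.36 ± 0.09 (adjusted p = 0.0157). ORM2 held 9.88, 9.80, 8.02 and 9.82 CPM in KO libraries against 6.46 and 6.77 CPM in sgNeg2 and rose by 0.50 ± 0.14 (adjusted p = 0.0393). These 2 of 5 genes were called, where 11.3% of all genes were, and neither call held without sgNeg2 replicate 1 or 2 or without sg1 replicate 1 or 2. The ORM2 call was also lost without sg2 replicate 2 (edgeR adjusted p = 0.0697), with RLE scaling (0.0507) and without the filter (0.0502). With sg2 alone (0.0896) or with ORM1 and ORM2 counts summed (0.0507) it was lost as well. SAA1 and SAA2 counts summed were called (log2 0.27, adjusted p = 0.0418). ORM1 held 21.8, 21.7, 18.4 and 10.7 CPM in KO libraries against 13 and 12.7 CPM in sgNeg2, so that 1 KO library fell below sgNeg2 (0.50 ± 0.22, adjusted p = 0.165). It was called without sg2 replicate 2, that library (0.68, adjusted p = 0.00211). SAA1 held 68.7, 70.2, 76.2 and 66.2 CPM in KO libraries against 57.7 and 65.8 CPM in sgNeg2 (0.19 ± 0.13, adjusted p = 0.386).

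HP encodes haptoglobin, which binds free haemoglobin. It held 2.58 and 2.23 CPM in sg1 and 3.03 and 2.62 CPM in sg2 libraries with IFN, against 1.94 and 0.497 CPM in sgNeg2 (log2 1.12 ± 0.36, adjusted p = 0.0614). Without IFN it held 5.21, 6.17, 6.92 and 7.40 CPM in KO libraries against 9.82 and 12 CPM in sgNeg2 (-0.77 ± 0.31, adjusted p = 0.134). Its groups did not overlap in either setting, though neither difference passed the threshold, and the 2 sgNeg2 libraries with IFN lay far apart. Without sgNeg2 replicate 1 of the IFN libraries the change with IFN was 2.39 and passed the threshold (adjusted p = 0.000762), and DESeq2 called it with all libraries (1.13, adjusted p = 0.00925). A fit of the 6 libraries without IFN alone called the fall without IFN (-0.76, adjusted p = 0.0079). HP overlaps TXNL4B on the opposite strand and has the near copy HPR, and the labels do not state whether counting used strand, so its reads are not certain to be its own.

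CRP encodes C-reactive protein, the acute phase protein most used in the clinic. It had no count in any of the 6 libraries with IFN. Without IFN it had 0, 1, 1 and 0 counts in KO libraries and 2 and 13 counts in sgNeg2 libraries, and it did not pass the filter on low counts. It is not listed for the EPZ-5676 and DMSO libraries.

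**Figure D2:**
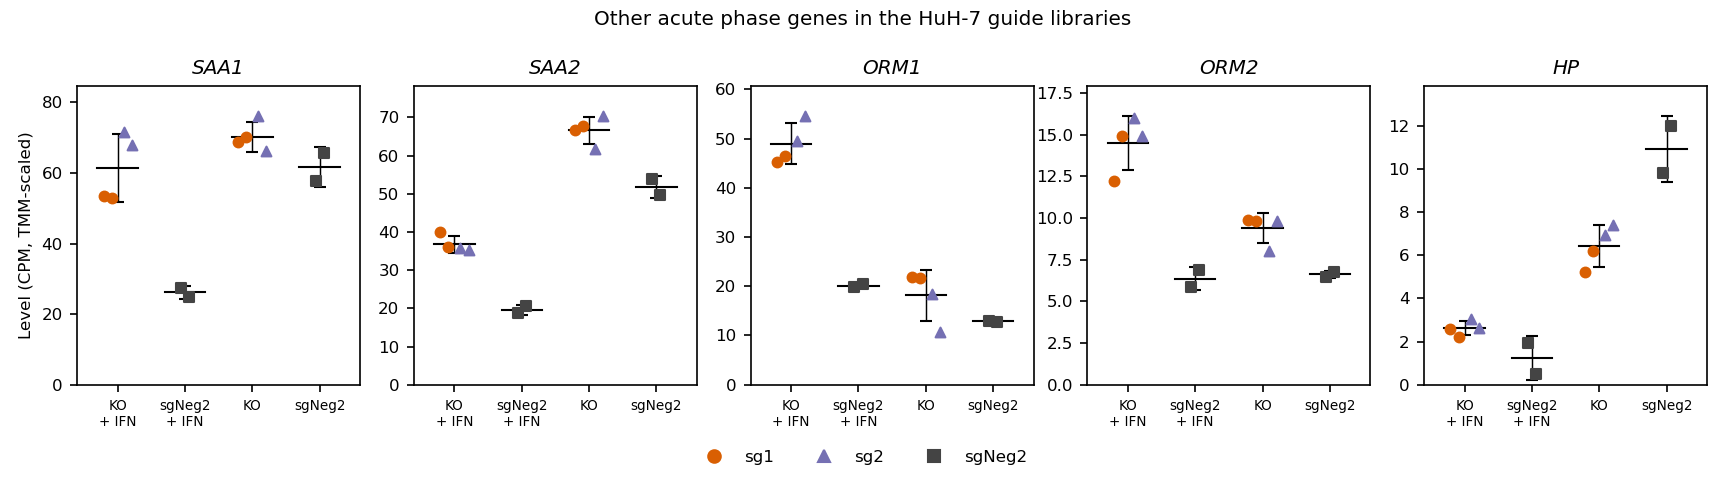
Levels of SAA1, SAA2, ORM1, ORM2 and HP (CPM, linear axis from 0) in the 12 HuH-7 guide libraries, by genotype and IFN. Symbols are libraries, lines are means and bars are SD. With IFN the KO libraries lie above the sgNeg2 libraries for all 5 genes, by 61.5 against 26.1 CPM on average for SAA1 and 49.0 against 20.1 CPM for ORM1.

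The difference between the KO effect with IFN and that without IFN was tested for the 5 genes not chosen by it. Here too, IFN and the kind of library cannot be told apart. SAA1 was called (log2 1.05 ± 0.18, adjusted p = 0.0214), where 0.505% of all genes were. HP (1.88 ± 0.47, adjusted p = 0.105, and 3.16, adjusted p = 0.00321 without sgNeg2 replicate 1 of the IFN libraries), SAA2 (0.54 ± 0.12, adjusted p = 0.0759), ORM2 (0.68 ± 0.20, adjusted p = 0.154) and ORM1 (0.78 ± 0.29, adjusted p = 0.262) had positive differences that did not pass the threshold. The SAA1 call was lost without either sgNeg2 library of either setting (adjusted p = 0.0663 to 0.129). With DESeq2 4 of the 5 genes were called, and with the 2 guides as groups of their own all 5 were. SAA1 and SAA2 are near copies, as are ORM1 and ORM2, and the labels do not state how reads that match both were counted, so the split within each pair is uncertain. SAA2 also overlaps the annotated protein-coding gene SAA2-SAA4 on its own strand, so its reads are not certain to be its own.

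IFN libraries differed from those without IFN in most genes, with 78.6% called in KO and 67.8% in sgNeg2 cells. In KO cells ORM1 (log2 1.43 ± 0.17, adjusted p = 3.12e-06) and ORM2 (0.63 ± 0.11, adjusted p = 0.000148) rose with IFN, HP (-1.29 ± 0.27, adjusted p = 0.000532) and SAA2 (-0.86 ± 0.07, adjusted p = 8.65e-08) fell, and SAA1 was at -0.19 ± 0.10 (adjusted p = 0.0998). In sgNeg2 cells HP (-3.17 ± 0.40, adjusted p = 1.3e-05), SAA1 (-1.24 ± 0.15, adjusted p = 7.19e-06) and SAA2 (-1.40 ± 0.10, adjusted p = 6.95e-08) fell, ORM1 rose (0.65 ± 0.24, adjusted p = 0.0289, and 0.0749 to 0.131 without any one sgNeg2 library), and ORM2 was at -0.05 ± 0.16 (adjusted p = 0.778). The direction depended on the comparison libraries. Against DMSO, where 60.1% of genes were called, sgNeg2 cells with IFN held 24.0 ± 1.84 against 12 ± 1.39 CPM of SAA1 (1.00, adjusted p = 2.89e-05) and 18.5 ± 0.277 against 27.8 ± 2.71 CPM of ORM1 (-0.59, adjusted p = 0.00033; SD, n = 2 and n = 3). SAA2 also turned round, to 0.22 (adjusted p = 0.0385), and ORM2 was lower, at 5.84 ± 0.626 against 12.6 ± 1.08 CPM (-1.11, adjusted p = 8.19e-06). HP was lower with IFN against both controls, at -4.19 against DMSO (adjusted p = 4.6e-07).

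With EPZ-5676 for 7 days 8 of the 9 listed genes rose in HuH-7 and none fell, where 33.7% of all 15023 genes were called, 15.1% higher and 18.6% lower. SAA2 rose most, at 40.1, 37.3 and 38.7 CPM with EPZ-5676 against 15.2, 15 and 16.5 CPM with DMSO (log2 1.31 ± 0.06, edgeR adjusted p = 1.2e-30). SAA1 held 28.4, 28.3 and 28.6 CPM with EPZ-5676 against 10.7, 13.5 and 11.9 CPM with DMSO (1.24 ± 0.07, adjusted p = 3.89e-25). Each treated library held over double the level of any DMSO library for these transcripts. LBP held 22.3, 20.9 and 21.8 CPM with EPZ-5676 against 13.4, 12.6 and 13.8 CPM with DMSO (0.71 ± 0.07, adjusted p = 7.39e-14). ORM1 held 35.9, 42.3 and 38.8 CPM against 30.0, 24.9 and 28.8 CPM (0.48 ± 0.06, adjusted p = 1.16e-06), and ORM2 17.4, 16.3 and 17.7 CPM against 12.8, 11.5 and 13.7 CPM (0.43 ± 0.08, adjusted p = 2.97e-06), with EPZ-5676 and DMSO. No treated library overlapped a DMSO library for LBP, ORM1 or ORM2. Of all genes 21.3% had every EPZ-5676 library above every DMSO library.

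The fibrinogen chains rose by smaller amounts that were still larger than the spread between these libraries. FGA held 447, 438 and 447 CPM with EPZ-5676 against 427, 414 and 424 CPM with DMSO (log2 0.07 ± 0.02, adjusted p = 0.000261, a 1.05-fold level). FGB held 169, 169 and 167 CPM against 143, 143 and 146 CPM (0.22 ± 0.02, adjusted p = 8.41e-12), and FGG 373, 374 and 378 CPM against 318, 317 and 315 CPM (0.24 ± 0.02, adjusted p = 2.22e-19), with EPZ-5676 and DMSO. The groups did not overlap for any chain. HP held 18.5, 22.2 and 20.6 CPM with EPZ-5676 against 21.8, 19.2 and 19.7 CPM with DMSO, and did not pass the threshold (0.01 ± 0.07, adjusted p = 0.911). All 8 calls held without any one of the 6 libraries.

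**Figure D3:**
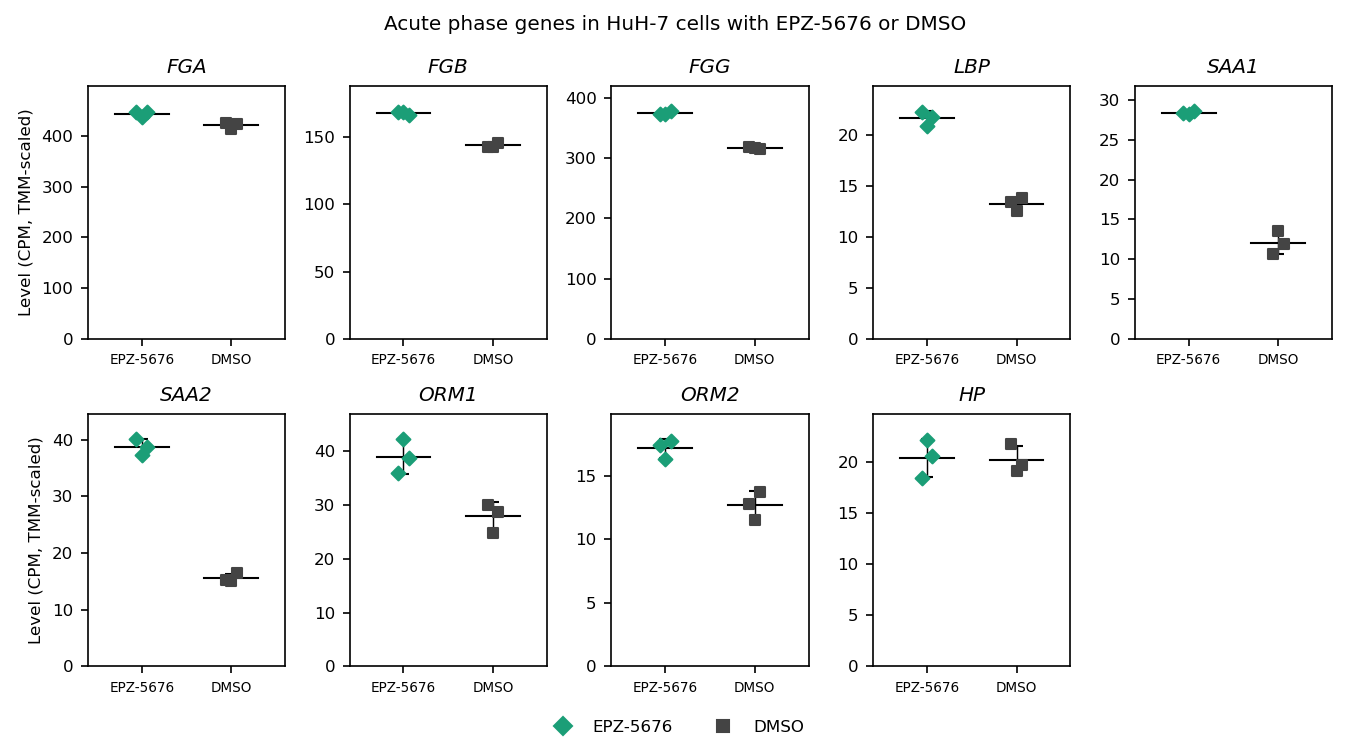
Levels of the 9 listed genes (CPM, linear axes from 0) in the 3 EPZ-5676 and 3 DMSO libraries of HuH-7. Symbols are libraries, lines are means and bars are SD. SAA1 and SAA2 average 28.4 and 38.7 CPM with EPZ-5676 against 12.1 and 15.6 CPM with DMSO, the chain genes differ little, and HP overlaps.

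Set side by side, SAA2 and ORM2 rose with KO in both settings and with EPZ-5676. Neither call without IFN held without any one sgNeg2 or sg1 library. SAA1 and ORM1 rose with KO under IFN and with EPZ-5676, and did not pass the threshold in KO cells without IFN. There ORM1 had the same log2 change as ORM2, 0.50, with a wider error. FGA, FGB and FGG were higher in KO cells with IFN and with EPZ-5676, and lower in KO cells without IFN. LBP was lower in KO cells without IFN, overlapped between genotypes with IFN and was higher with EPZ-5676. HP also lay higher in KO cells with IFN and lower without IFN, and was at log2 0.01 with EPZ-5676. It passed the threshold in none of these main fits. The difference between knockout and inhibitor was not tested, since the libraries belong to separate sets.

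**Figure D4:**
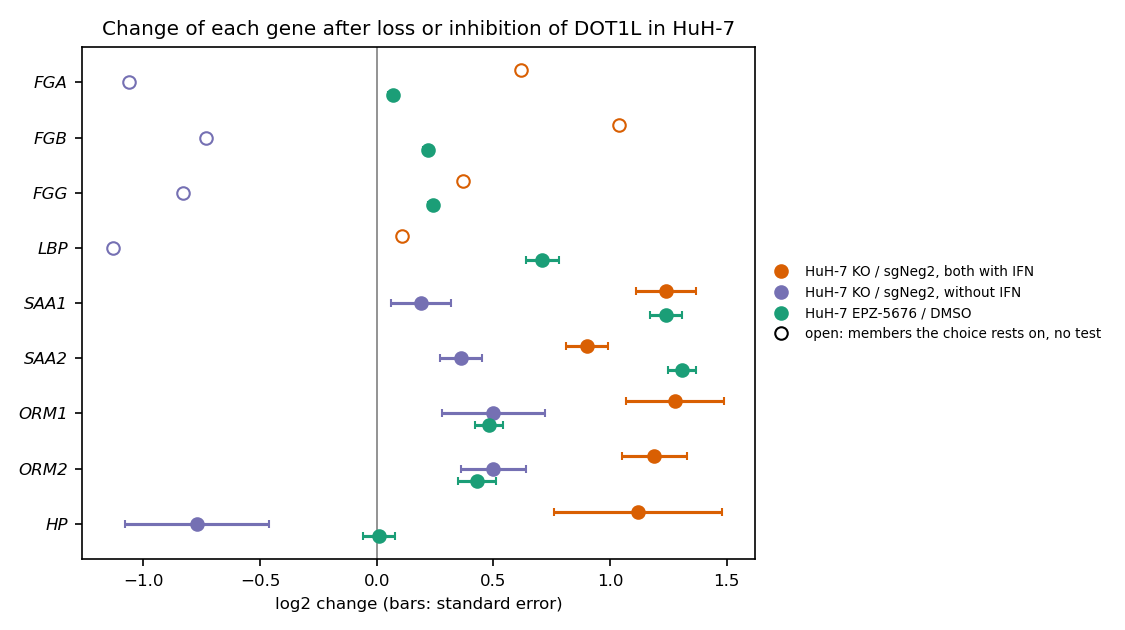
Log2 change of each gene in HuH-7 for KO over sgNeg2 with IFN, KO over sgNeg2 without IFN and EPZ-5676 over DMSO. Points are fitted changes, bars are standard errors, and open points mark KO changes of the genes chosen by the genotype and IFN pattern, which have no test in these libraries. FGA, FGB, FGG and LBP lie left of 0 without IFN (-1.06, -0.73, -0.83 and -1.13), and SAA2 lies right of 0 in all 3 settings (0.90, 0.36 and 1.31).

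Other genes of the response were counted from lists of named genes, against 7.11% of all genes called higher and 5.27% lower in KO cells with IFN, and 6.95% and 4.38% without IFN. Of 15 other positive acute phase genes that passed the filter, 4 rose and 1 fell in KO cells with IFN and 4 rose and 2 fell without IFN, with list medians of log2 0.22 and -0.17 against -0.06 and 0.00 for all genes. A2M, the protease inhibitor alpha-2-macroglobulin and an acute phase protein chiefly in rat, rose by 2.79 ± 0.15 (adjusted p = 9.7e-08) with IFN and 1.89 ± 0.15 (adjusted p = 6.19e-06) without IFN. LCN2, the iron-siderophore binding protein lipocalin-2, rose by 1.10 ± 0.14 (adjusted p = 0.000195) with IFN and 1.12 ± 0.15 (adjusted p = 0.000281) without IFN, while the protease inhibitor gene SERPINA3 fell by 0.84 without IFN (adjusted p = 6.15e-05). With EPZ-5676 8 rose and 3 fell (median 0.29, against 0.01 for all genes), with A2M at 1.11 ± 0.07 (adjusted p = 6.98e-23) and LCN2 at 0.71 ± 0.08 (adjusted p = 1.48e-11).

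Among 11 negative acute phase genes, which the liver lowers during inflammation, 3 rose and 2 fell with IFN, 1 rose and 4 fell without IFN, and 2 rose and 4 fell with EPZ-5676 (medians 0.06, -0.27 and 0.02). AHSG, which encodes fetuin-A, rose to 34.5 ± 6.60 CPM in KO against 5.39 ± 0.404 CPM in sgNeg2 cells with IFN (log2 2.68 ± 0.20, adjusted p = 2.19e-06). APOA1, the main apolipoprotein of HDL, fell by 0.60 in KO cells both with IFN (adjusted p = 0.0115) and without (adjusted p = 0.0122). Of 24 coagulation and fibrinolysis genes, 5 rose and 5 fell with IFN and 3 rose and 4 fell without IFN (medians -0.02 and 0.09). F2, the prothrombin gene, fell to 212 ± 42.0 CPM in KO against 337 ± 5.88 CPM in sgNeg2 cells with IFN (-0.67 ± 0.14, adjusted p = 0.00624), and F12, the factor XII gene, fell by 1.10 without IFN (adjusted p = 0.00171).

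Of 22 IL-6 and STAT3 signalling genes, 4 rose and 0 fell in KO cells with IFN, and 3 rose and 3 fell without IFN (medians 0.10 and 0.02). IL6R, the IL-6 receptor gene, rose by 0.81 ± 0.09 (adjusted p = 3.53e-05) with IFN and 0.61 ± 0.09 (adjusted p = 0.000521) without, and IL1R1, the IL-1 receptor gene, held 18.1 ± 0.817 CPM in KO against 8.26 ± 1.02 CPM in sgNeg2 cells with IFN (1.13 ± 0.11, adjusted p = 1.47e-05). IL1R1 was the single gene of this list whose KO effect differed between libraries with and without IFN (1.07 ± 0.14, edgeR adjusted p = 0.00356). Of 24 liver transcription factors, 0 rose and 7 fell with IFN, 0 rose and 10 fell without IFN, and 4 rose and 13 fell with EPZ-5676 (medians -0.26, -0.28 and -0.08). ONECUT1, the HNF6 gene, fell by 0.91 with IFN (adjusted p = 2.57e-05) and 0.62 without (adjusted p = 0.000521).

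The genes next to the fibrinogen cluster, PLRG1 at 12.5 kb and LRAT at 14.0 kb, were examined with 10 further genes of the region. Of these 12 genes 5 passed the filter. TLR2, at 857.3 kb, rose in KO cells in both settings, at a mean level under 5 CPM. TRIM2, at 1223.6 kb, fell with IFN (-0.38 ± 0.10, edgeR adjusted p = 0.0209). PLRG1, the nearest, was called in neither setting.

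Markers of other cells moved with genotype as well. The summed level of 6 leukocyte markers was 378 to 412 CPM in KO and 241 to 247 CPM in sgNeg2 libraries with IFN, 165 to 199 CPM in KO and 94.0 to 97.6 CPM in sgNeg2 libraries without IFN, and 242 to 248 CPM with EPZ-5676 against 151 to 155 CPM with DMSO. CD68 and LYZ were the 2 markers at 5 CPM or more, and the defining marker PTPRC was at 0 in all guide groups. The summed level of 6 fibroblast markers, of which PDGFRA alone reached 5 CPM, was lower in KO, at 41.9 to 53.1 CPM against 74.2 to 80.2 CPM in sgNeg2 libraries with IFN and at 70.9 to 79.9 CPM against 121 CPM without IFN, and was 89.0 to 94.6 CPM with EPZ-5676 against 101 to 105 CPM with DMSO. The 4 endothelial markers summed to 6.71 to 9.81 CPM in KO and 3.10 to 4.38 CPM in sgNeg2 libraries with IFN, and to 15.8 to 18.3 CPM in KO and 8.61 to 9.67 CPM in sgNeg2 libraries without IFN, with KDR at 0 in all guide groups. The 4 epithelial markers summed to 3031 to 3770.3 CPM in KO and 4327 to 4368 CPM in sgNeg2 libraries with IFN, and to 2547 to 2817 CPM in KO and 2958 to 2983 CPM in sgNeg2 libraries without IFN. The summed level of the 10 hepatocyte markers was 9692 to 10232 CPM in KO and 10596 to 10713 CPM in sgNeg2 libraries with IFN, 14322 to 16294 CPM in KO and 17535 to 17592 CPM in sgNeg2 libraries without IFN, and 16215 to 16272 CPM with EPZ-5676 against 18157 to 18245 CPM with DMSO. The part of these markers in the changes above was not tested, and fewer cells making a transcript and less transcript per cell cannot be told apart in bulk RNA.

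Over the 12 guide libraries the level of FGA ran most like that of FGB (Pearson r = 0.837) and FGG (r = 0.826) among the set, followed by HP (0.686), LBP (0.582), SAA1 (0.457) and SAA2 (0.400), with ORM2 (-0.101) and ORM1 (-0.275) last. Of the 5 genes outside the set most like FGA, among 10937 genes, 4 were PEX11A (0.922), NIPAL3 (0.863), BMF (0.846) and PIM1 (0.801). PEX11A held 7.34 ± 0.896 CPM in KO and 6.12 ± 0.711 CPM in sgNeg2 cells with IFN, and 6.71 ± 0.754 CPM in KO and 10.0 ± 0.171 CPM in sgNeg2 cells without IFN. These values describe 12 libraries that share genotype, IFN and kind of library.

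In the mouse lines the set was expressed mainly in Hepa1-6, where 7 of 10 genes passed the filter, and 2 rose and 1 fell where 32.8% of all genes were called, 14.5% higher and 18.3% lower. Fgb held 1212 and 1220.4 CPM in sg1 and 1364 and 1399.8 CPM in sg2 libraries, against 2015 and 2022 CPM in sgNeg2, and fell by 0.64 on the log2 scale (SE 0.05, adjusted p = 6.99e-07). Fgg held 7.57 and 7.38 CPM in sg1 and 11.4 and 11.3 CPM in sg2 libraries, against 5.72 and 5.11 CPM in sgNeg2, and rose (0.80 ± 0.18, adjusted p = 0.00309). Fga held 2.39, 3.31, 3.21 and 3.34 CPM in KO libraries against 1.96 and 2.00 CPM in sgNeg2 (0.63 ± 0.21, adjusted p = 0.0255). The 3 chains thus moved in different directions in Hepa1-6, with the groups apart for each (23.4% of all genes lay apart and higher in KO, and 25.2% lower), and Fgb stood far above the other chains. The summed level of the hepatocyte markers was also lower in KO, at 12651 to 12914 CPM against 17243 to 17446 CPM in sgNeg2 libraries, and its part in these changes and those of the lists was not tested. The Fga rise was lost without any one library except sg1 replicate 1 (adjusted p = 0.0525 to 0.133), with sg1 alone (0.138) and in the joint fit of the 18 mouse libraries (0.194), and that of Fgg without sgNeg2 replicate 2 (adjusted p = 0.0716).

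Lbp in Hepa1-6 held 658, 667, 636 and 628 CPM in KO libraries against 657 and 668 CPM in sgNeg2 (-0.03 ± 0.03, adjusted p = 0.488). Hp held 114 and 113 CPM in sg1 and 161 and 168 CPM in sg2 libraries, against 193 and 191 CPM in sgNeg2 (-0.47 ± 0.22, adjusted p = 0.206). All 4 KO libraries held less Hp than sgNeg2, and each guide set alone against sgNeg2 passed the threshold (log2 -0.76 for sg1, edgeR adjusted p = 3.29e-18, and -0.22 for sg2, adjusted p = 1.08e-05). Those fits set 2 KO libraries against 2 of sgNeg2, so their p-values do not cover the difference between the guides. Orm1 and Orm2 stayed at or under 1.12 CPM, and Orm1 had no count in 1 KO library. Saa3, a mouse relative of the serum amyloid A genes that is no member of the set, rose (0.74 ± 0.20, adjusted p = 0.00727), at 4.96, 3.67, 4.39 and 4.96 CPM in KO against 2.03 and 3.39 CPM in sgNeg2 libraries.

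Of the other lists in Hepa1-6, 1 of 10 positive acute phase genes rose and 6 fell (median log2 -0.28, against 0.01 for all genes). C3, the central complement gene, fell to 2789 ± 61.9 CPM in KO (SD, n = 4) against 3866 ± 27.5 CPM in sgNeg2 cells (n = 2; -0.47 ± 0.03, adjusted p = 4.39e-10), and Cp, the ceruloplasmin gene, fell by 0.55 (adjusted p = 5.53e-10). Of 19 IL-6 and STAT3 signalling genes 1 rose and 8 fell (median -0.06), with Stat3 at -0.34 ± 0.04 (adjusted p = 1.07e-06). Of 21 liver transcription factors 1 rose and 11 fell (median -0.24), with Prox1, a regulator of hepatocyte identity, at -1.12 ± 0.06 (adjusted p = 2.78e-12) and Foxa2 at -0.58 ± 0.04 (adjusted p = 1.03e-09).

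In Hep53.4 the fibrinogen chain genes had at most 2 counts in any library, and 2 genes of the set passed the filter. Lbp held 59.5 and 57.7 CPM in sg1 and 62.3 and 64.3 CPM in sg2 libraries, against 69.8 and 70.6 CPM in sgNeg2, and fell by 0.21 on the log2 scale (SE 0.04, adjusted p = 0.000404), where 39.2% of genes were called. The hepatocyte markers summed to 1242 to 1326 CPM in these KO libraries and 1438 to 1457 CPM in sgNeg2 libraries. In LLC, where the chain genes had no count, Lbp was the 1 gene of the set to pass. It held 5.60 and 6.22 CPM in sg1 and 5.77 and 5.26 CPM in sg2 libraries, against 2.65 and 2.33 CPM in sgNeg2, and rose (1.20 ± 0.14, adjusted p = 2.34e-06), where 33.5% of genes were called. Both calls held without any one library.

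The effect on Lbp differed between the lines. It was lower by 1.27 on the log2 scale in Hepa1-6 than in LLC (-1.27 ± 0.10, adjusted p = 6.21e-12, where 24.6% of genes were called) and by 1.43 in Hep53.4 than in LLC (-1.43 ± 0.10, adjusted p = 7.84e-13, 29.2% called). Between Hepa1-6 and Hep53.4 the difference was 0.16 ± 0.06 (adjusted p = 0.0344, 24.7% called), and it was lost without any one of 7 of the 12 libraries.

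**Figure D5:**
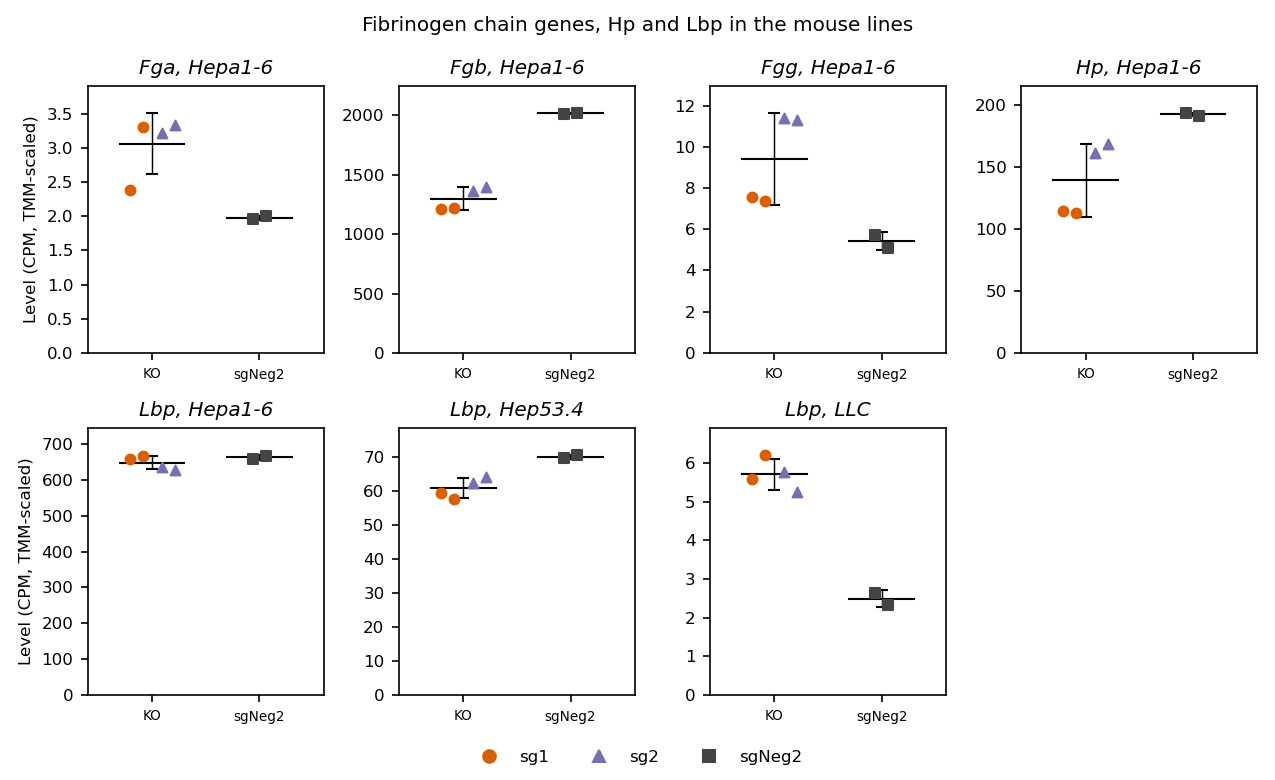
Levels (CPM, linear axes from 0) of Fga, Fgb, Fgg, Hp and Lbp in Hepa1-6 and of Lbp in Hep53.4 and LLC, KO beside sgNeg2. Symbols are libraries, lines are means and bars are SD. In Hepa1-6, Fgb averages 1299 CPM in KO against 2019 CPM in sgNeg2 and Fgg 9.40 against 5.41 CPM, and in LLC Lbp averages 5.72 CPM in KO against 2.49 CPM in sgNeg2.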

How the data were processed

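Transcripts were counted in 36 RNA sequencing libraries, and the deposited values are raw counts per gene symbol, 1 table per library. Per the submitters' processing notes, Trim Galore, HISAT2 2.2.1, SAMtools 1.9 and DESeq2 1.36.0 were used with the builds hg38 and mm10, and neither the counter nor the annotation is named there. Lines without a symbol were dropped. The DMSO and EPZ-5676 tables list genes with at least 1 count in every library.

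Tests used edgeR 4.0.16 (R 4.3.3). The filterByExpr function removed genes of low count (settings 10 per library and 15 in total), TMM gave the scaling, and quasi-likelihood F tests gave p-values. One fit covered the 12 guide libraries of HuH-7, another the 6 drug libraries, and 3 more the 6 libraries of each mouse line. In these fits both guides were pooled as KO without a term for guide. Libraries of either guide thus counted as replicates of the KO group, set against a single control guide. The tests between guides used a fit with each guide as a group. The 18 mouse libraries were fitted jointly for differences between lines. Benjamini-Hochberg adjustment ran over all genes tested, and a gene was called below 0.05. Standard errors come from the F statistic. CPM are TMM-scaled. Depth was 19580588 counts or more per library, and counting error covers only part of the spread. Exon lengths, each the union of all annotated exons, and gene positions come from GENCODE v29 (GRCh38), and promoters from RefSeq (GRCh38.p14). Some of the tests were checked on simulated data, drawn with no shared difference between the guides, so the check does not cover such a difference. FGA, FGB, FGG and LBP were left out of the tests between guides, which had been planned over all genes of the set.

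All members and lists were chosen with earlier results of these data known. Named beside the members are up to 3 called genes with the largest change per list and comparison, with a mean of at least 5 CPM, and the 5 genes most correlated with FGA, except 2 genes that are not reported here. TLR2 and PLRG1 were named after their values were seen. Replicate numbers are shared between groups, but residuals of same-numbered libraries correlated at -0.061 to 0.062, so the numbers were not taken to pair libraries. The alternatives were RLE scaling, no filter, a replicate block, DESeq2 1.42.0, guides apart, smaller or joint fits, DMSO as control for IFN, summed paralogs and each library left out.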

Additional observations from a re-analysis of the deposited data

Results flagged for a closer look

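Of 25 sets of 4 KO libraries with a mean of at least 1 CPM for a gene of the set, 2 held a library far from the other 3, where chance would mark about 1 in 20. ORM2 held 8.02 CPM in HuH-7 sg2 replicate 1 without IFN, below the other KO libraries at 9.80 to 9.88 CPM. Fga held 2.39 CPM in Hepa1-6 sg1 replicate 1, below the others at 3.21 to 3.34 CPM.

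Differences of the DOT1L knockout effect between settings were flagged for several genes. The KO effect on SAA1 was larger with IFN than without by log2 1.05, a call that was lost without any one sgNeg2 library. FGA, FGB and FGG were chosen for a genotype-dependent change with IFN in these libraries, so their flag follows from that choice. For them every KO library lay above sgNeg2 with IFN and below it without. Their differences of 1.68, 1.78 and 1.20 were not tested. HP had the same order of libraries, with a tested difference of 1.88 that did not pass the threshold. In none of these differences can IFN and the kind of library be told apart. The KO effect on Lbp differed between Hepa1-6 and Hep53.4 by 0.16, between Hepa1-6 and LLC by -1.27 and between Hep53.4 and LLC by -1.43.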

How the results depend on the processing

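The count of genes called in KO cells without IFN was 2, and it was 1 with RLE scaling, without the filter or with sg2 alone, and 0 to 2 with one library left out. For the interaction the count was 1, and it was 4 with DESeq2, 5 with the guides as groups, 3 with sg1 alone, 4 with sg2 alone and 0 to 1 with one library left out. Leaving out one library gave 0 to 1 for the guides without IFN (0 in full), 1 to 3 in Hepa1-6 (3 in full) and 0 to 1 for Lbp between Hepa1-6 and Hep53.4 (1 in full). The count was 8 under each alternative with EPZ-5676, and 4 to 5 in KO cells with IFN.

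With a replicate block the counts were 2 in KO without IFN, 4 with IFN, 1 for the interaction, 8 with EPZ-5676 and 3 in Hepa1-6. It changed no call of a gene of the set.

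Several changes turned round. With one library left out, ORM2 in sgNeg2 cells with IFN ranged from -0.17 to 0.05, and HP with EPZ-5676 from -0.05 to 0.08. Between guides without IFN, LBP ranged from -0.07 to 0.04, SAA1 from -0.07 to 0.14 and SAA2 from -0.12 to 0.07. LBP between guides with IFN ranged from -0.06 to 0.17, and Hp in Hep53.4 from -0.67 to 0.36. Hp in Hep53.4 was 0.19 with sg2 alone, and Lbp in Hepa1-6 was 0.00 with sg1 alone. With DMSO as control for IFN, called changes turned round too, with ORM1 at -0.59, SAA1 at 1.00 and SAA2 at 0.22. With paralogs summed, the sign turned for ORM2 and SAA2 but not for ORM1 and SAA1. ORM1 and ORM2 in sgNeg2 cells with IFN gave 0.44, against 0.65 and -0.05 apart. SAA1 and SAA2 between guides gave 0.01 without IFN, against 0.04 and -0.02 apart. With IFN they gave 0.21, against 0.39 and -0.10 apart. The cause was not tested. With 2 sgNeg2 libraries per setting, the spread of that group rests on few values.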
